A study of Mus musculus with 8 samples.

Results

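Gene expression was compared between CCL21+RANK- and CCL21-RANK- thymic epithelial cells (TECs) of the mouse embryo, in 5 of the 8 RNA-sequencing libraries of the series. The libraries were made from CD45-EpCAM+ TECs sorted at embryonic day 17 (E17) from embryos that carry both the CCL21a-tdTomato and the RANK-Venus reporter, and all groups share this genotype. The embryos were heterozygous for tdTomato, which was knocked into the *Ccl21a* locus (Ccl21a tdTomato/+), and Venus reports *Tnfrsf11a*, the gene that encodes RANK. CCL21+RANK- cells are tdTomato+Venus- (3 libraries), CCL21-RANK- cells are tdTomato-Venus- (2 libraries), and CCL21-RANK+ cells are tdTomato-Venus+ (3 libraries). The last group entered the expression filter and the fit, where it adds to the estimate of the spread. Its levels are given for reference only. The replicates are stated to be biological, but the sources used here do not say which embryos or litters went into a library, so the p-values measure the spread between these libraries.

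The question put to the data was which genes set CCL21+RANK- TECs apart from TECs that carry neither reporter, and which of these genes were carried by a single library. Of 55450 genes in the table, 21451 had enough counts over all 8 libraries to be tested. Some of these had 0 counts in both groups compared and passed through the CCL21-RANK+ libraries. With only the 5 libraries compared, 17925 genes were tested, and 1160 were called higher and 969 lower by the rule given below. The shares of all genes printed below are over the 21451. The totals were 59677342, 46003149, and 55116934 counts for CCL21+RANK- TECs and 67451448 and 71625319 for CCL21-RANK- TECs. Of these counts the noncoding *Gm26917* alone took 12.7%, 11.8%, and 7.52% in CCL21+RANK- TECs and 17.3% and 6.89% in CCL21-RANK- TECs. *Gm42418* took a further 2.12%, 10.7%, and 3.06% in CCL21+RANK- TECs and 3.23% and 1.47% in CCL21-RANK- TECs. Such shares lower the RPKM (reads per kilobase of exon, scaled to the library total) of all other genes in a library. At these depths the spread between libraries exceeded counting error, with a biological coefficient of variation of 0.326 over all genes.

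TECs form the stroma in which T cells develop. Cortical TECs produce Notch ligands and a thymus-specific proteasome that serve the induction and positive selection of T cells. Medullary TECs attract the selected thymocytes with the chemokines CCL21 and CCL19 and display self-antigens under the control of Aire. The parathyroid gland arises beside the thymus from the same pharyngeal pouch endoderm, under the transcription factor Gcm2, and its cells sense calcium through the receptor Casr and release parathyroid hormone (Pth) from granules that also hold chromogranin A (Chga).

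The epithelial label held in all 5 libraries, each of which expressed *Foxn1*, *Epcam*, and *Krt8*. *Foxn1*, the transcription factor that directs TEC differentiation, was at 85.4, 93.2, and 105 RPKM in CCL21+RANK- TECs, compared with 82.2 and 85.4 RPKM in CCL21-RANK- TECs (edgeR log2 fold change of 0.17 ± 0.117 SE, adjusted p = 0.407). *Epcam*, the surface protein used in the sort, was at 78.9, 49.5, and 50.4 RPKM and 61.7 and 83.7 RPKM, and *Krt8*, a keratin of simple epithelia, at 1309, 1279.8, and 1495 RPKM and 1443 and 1569.7 RPKM. The libraries of the groups overlapped for all 3 genes. Of 15 thymic epithelial identity factors tested, *Tbx1*, a T-box factor of the pharyngeal pouches, was called higher (6.67%, where 4.35% of all genes tested were) and 0 lower (median log2 fold change -0.08), and its call was lost without replicate 1 of the CCL21+RANK- libraries, when its mean was below 1 RPKM (log2 fold change 1.93), and without either CCL21-RANK- library. *Ptprc*, which encodes CD45, stayed at or below 0.193 RPKM in all 5 libraries.

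The genes behind the 2 reporters were read first, and both groups compared were sorted as Venus-. *Ccl21a* (chr4:42772860-42773993) was at 561, 346, and 305 RPKM in CCL21+RANK- TECs, compared with 6.88 and 8.87 RPKM in CCL21-RANK- TECs (edgeR log2 fold change of 5.69 ± 0.388 SE, adjusted p = 7.4e-05). The CCL21-RANK+ libraries, also sorted as tdTomato-, were at 152, 95.9, and 78.2 RPKM, between the other groups. *Ccl21a* is described and not counted as a finding, since the tdTomato gate selects for it, and its near-identical copies share reads (*Ccl21a* itself held 92.1% to 94.7% of all Ccl21 counts in CCL21+RANK- libraries and 93.1% and 93.3% in CCL21-RANK- libraries). *Tnfrsf11a* (chr1:105780718-105847981) was at 8.78, 9.44, and 10.3 RPKM in CCL21+RANK- TECs, compared with 2.62 and 2.26 RPKM in CCL21-RANK- TECs (edgeR log2 fold change of 1.96 ± 0.144 SE, adjusted p = 8.7e-05). All 3 CCL21+RANK- libraries were above both CCL21-RANK- libraries and far below the CCL21-RANK+ libraries, which were at 111, 93.1, and 107 RPKM.

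A gene was called when the adjusted p-value of edgeR's quasi-likelihood test was under 0.05, the fold change was over 1.5, and the mean in the higher group was over 1 RPKM. By this rule 934 genes were higher in CCL21+RANK- TECs (4.35% of the genes tested) and 786 were lower (3.66%), and the median log2 fold change of all genes tested was 0. In bulk libraries, fewer cells that express a gene and less RNA of it per cell cannot be told apart. The comparison of 3 with 2 libraries cannot give an exact permutation p below 0.1, so the calls rest on the model fitted across all genes. Leaving out CCL21-RANK- replicate 1 gave 445 genes higher and 327 lower, and leaving out replicate 2 gave 410 and 247.

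The 934 genes fell into unequal classes by their evenness over the 3 CCL21+RANK- libraries, measured in normalized counts scaled to the library total (CPM). In 582 genes (62.3%) the highest library was at most 1.5 times the lowest, which held for 50.8% of all genes tested, and these genes are called even below. In 84 genes (8.99%) replicate 1 was at least 2 times the higher of the other 2 libraries, and these are called highest in replicate 1. No gene called higher stood out in this way in replicate 2 or in replicate 3, whereas among all tested genes 1344 were highest in replicate 1, 1095 in replicate 2, and 773 in replicate 3. The other 268 genes lay between. These classes describe the libraries and carry no test. At the borders, *Clmp* (2.00 times) and *Syne3* (2.00 times) were just inside the first class, and *Myo5b* (1.99 times) and *Pcdh8* (1.99 times) were just outside it.

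**Figure D1:**
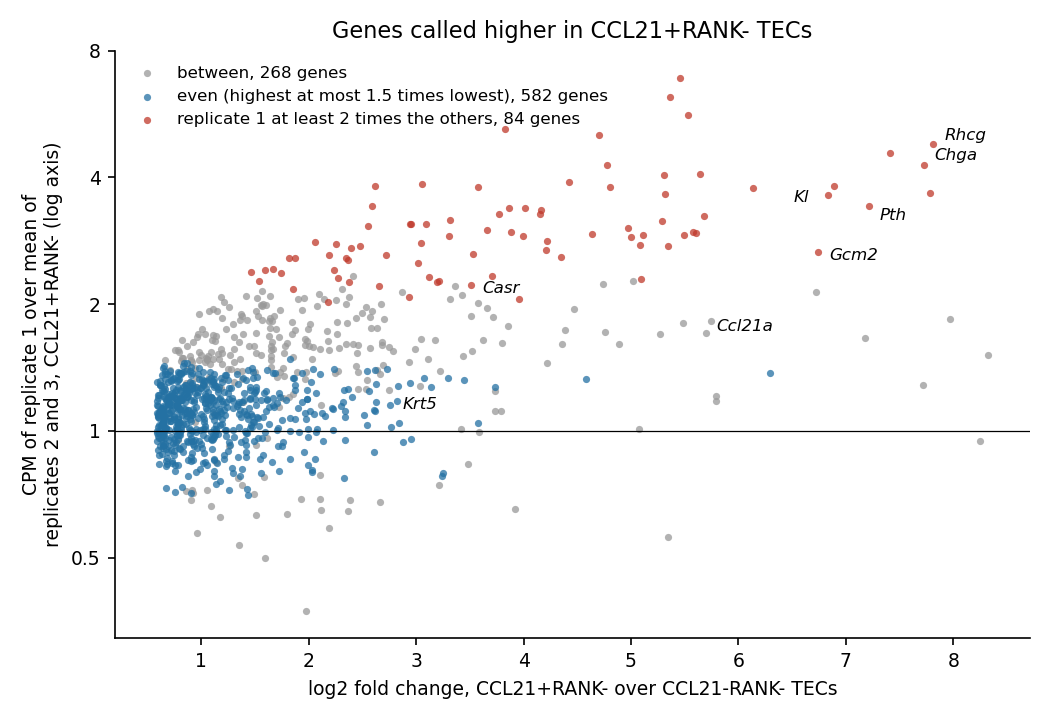
Each point is 1 of the 934 genes called higher, with the log2 fold change of CCL21+RANK- over CCL21-RANK- TECs on the x axis and the CPM of CCL21+RANK- replicate 1 over the mean of replicates 2 and 3 on the y axis (log axis). The 84 genes highest in replicate 1 (red) have a median log2 fold change of 3.80, the 268 genes between (grey) of 1.73, and the 582 even genes (blue) of 1.00, whereas over all genes tested, called or not, these medians are 0.83, 0, and -0.05.

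Among the called genes, the median log2 fold change was 3.80 in the genes highest in replicate 1, 1.73 in those between, and 1.00 in the even genes. Over all genes tested, called or not, the medians of the same classes were 0.83, 0, and -0.05. The first set is over genes that had passed the test, in which a gene with a wider spread needs a larger fold change, so the sizes are not compared between the classes. Of the 84 genes highest in replicate 1, 52 were still called without that library, as were 440 of the 582 even genes and 187 of the 268 between. Without CCL21-RANK- replicate 2, these numbers were 34, 271, and 95.

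Several parathyroid genes were among those highest in replicate 1. Of 12 parathyroid genes tested, 8 were called higher and 0 lower, against 4.35% of all genes, with a median log2 fold change of 3.04. Of these, 6 belonged to this class (*Pth*, *Chga*, *Gcm2*, *Kl*, *Gata3*, and *Casr*) and *Vdr* lay between. The count was also 8 without replicate 1. Their summed level was 14790, 3835, and 3805 CPM in the CCL21+RANK- libraries and 181 and 177 CPM in the CCL21-RANK- libraries, and the most abundant gene, *Chga*, made up 11555, 2689.5, and 2696 CPM and 27.1 and 26.2 CPM of these sums. Whether parathyroid cells or TECs carried these transcripts was not tested.

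Several genes of the class encode secreted proteins. *Pth* (chr7:113385580-113388570), the calcium-raising hormone, was at 3002, 848, and 906 RPKM in CCL21+RANK- TECs, compared with 12.4 and 8.85 RPKM in CCL21-RANK- TECs (edgeR log2 fold change of 7.21 ± 0.729 SE, adjusted p = 0.000439). Replicate 1 was 3.42 times the mean of the other 2 libraries, and even the lowest CCL21+RANK- library was far above both CCL21-RANK- libraries. The log2 fold change without replicate 1 was 6.36 (edgeR adjusted p = 7.85e-05). *Chga* (chr12:102554969-102565028), an acidic protein of hormone granules, was at 4061, 878, and 1020.3 RPKM and 9.05 and 9.70 RPKM (edgeR log2 fold change of 7.73 ± 1.03 SE, adjusted p = 0.00163), with the same order of the 3 CCL21+RANK- libraries and a log2 fold change of 6.66 without replicate 1. *Spink8*, a gene of the serine protease inhibitor family, was at 27.0, 10.4, and 5.94 RPKM and 0.307 and 0.255 RPKM (edgeR log2 fold change of 5.68 ± 0.929 SE, adjusted p = 0.00444), and *Sparcl1*, a secreted matrix protein, at 133, 25.3, and 33.3 RPKM and 0.298 and 0.456 RPKM (edgeR log2 fold change of 7.41 ± 0.984 SE, adjusted p = 0.00164). In each of these genes replicate 1 was the highest library and the groups did not overlap, although the call of *Spink8* was lost without CCL21-RANK- replicate 2 (edgeR adjusted p = 0.063).

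Of the genes of calcium balance, *Casr*, *Kl*, and *Vdr* are described here. *Casr*, the calcium-sensing receptor, was at 47.4, 19.1, and 23.7 RPKM in CCL21+RANK- TECs, compared with 2.26 and 3.02 RPKM in CCL21-RANK- TECs (edgeR log2 fold change of 3.52 ± 0.377 SE, adjusted p = 0.000594). Without replicate 1 the log2 fold change was 3.02, with an edgeR adjusted p of 8.27e-05. *Kl*, which encodes Klotho, the co-receptor of FGF23, was at 13.1, 2.58, and 4.79 RPKM and 0.0397 and 0.0793 RPKM (edgeR log2 fold change of 6.84 ± 0.788 SE, adjusted p = 0.000868). *Vdr*, the vitamin D receptor, was less uneven at 13.8, 8.34, and 9.19 RPKM and 1.64 and 1.89 RPKM (edgeR log2 fold change of 2.57 ± 0.264 SE, adjusted p = 0.00048). Of 22 calcium and vitamin D handling genes tested, 4 were called higher (18.2% against 4.35% of all genes) and 0 lower (*Kl*, *Casr*, *Vdr*, and *Fgfr1*), and the median log2 fold change was 0.25. Of the 4, *Kl*, *Casr*, and *Vdr* also belong to the parathyroid list. The call of *Fgfr1*, an FGF receptor, was lost without replicate 1 (edgeR adjusted p = 0.0643) and without either CCL21-RANK- library (0.165 and 0.168).

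The transcription factor *Gcm2* (chr13:41101427-41111035), required to form parathyroid glands, was at 12.0, 4.05, and 5.05 RPKM in CCL21+RANK- TECs, compared with 0.117 and 0.0127 RPKM in CCL21-RANK- TECs (edgeR log2 fold change of 6.74 ± 0.884 SE, adjusted p = 0.00152). Its log2 fold change ranged from 5.83 without CCL21-RANK- replicate 2 to 9.11 without CCL21-RANK- replicate 1. *Gata3*, a factor shared by parathyroid and T cells, rose by 5.00 on the log2 scale (edgeR adjusted p = 0.00066).

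The other leading genes of the class are not parathyroid list genes. *Rhcg*, an ammonia transporter of epithelia, was at 25.4, 2.98, and 7.93 RPKM and 0.0930 and 0.0125 RPKM (edgeR log2 fold change of 7.82 ± 1.23 SE, adjusted p = 0.00362), the largest log2 fold change among the genes highest in replicate 1. *A4galt*, a glycolipid galactosyltransferase, was at 9.92, 2.19, and 3.28 RPKM and 0.0325 and 0.0123 RPKM (edgeR log2 fold change of 7.79 ± 1.01 SE, adjusted p = 0.00146). *Stac2*, an adaptor of calcium channels, was at 6.28, 1.17, and 2.23 RPKM and 0.0283 and 0.0623 RPKM (edgeR log2 fold change of 6.13 ± 0.895 SE, adjusted p = 0.00252). All 3 were highest in replicate 1 in the CCL21+RANK- group, and in all 3 the CCL21-RANK+ libraries, at 2.67, 0.706, and 1.37 RPKM, 5.26, 1.66, and 2.42 RPKM, and 1.36, 0.635, and 0.507 RPKM, were also highest in replicate 1.

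Growth factor genes of the class were low in level. *Erbb4*, a receptor of neuregulins, was at 2.31, 0.695, and 0.499 RPKM and 0.00600 and 0.0136 RPKM (edgeR log2 fold change of 6.89 ± 1.000 SE, adjusted p = 0.00245), and *Egf*, the ligand of the EGF receptor, at 2.52, 0.862, and 0.710 RPKM and 0.126 and 0.149 RPKM (edgeR log2 fold change of 3.32 ± 0.732 SE, adjusted p = 0.0186). *Erbb3*, which pairs with Erbb4, lay between the classes at 3.35, 1.51, and 1.94 RPKM and 0.976 and 1.12 RPKM (edgeR log2 fold change of 1.11 ± 0.305 SE, adjusted p = 0.0445). The calls of all 3 were lost without replicate 1 (log2 fold changes of 5.94, 2.53, and 0.72), for *Erbb4* and *Egf* by their level, since the means were then below 1 RPKM while the edgeR adjusted p was 0.00275 and 0.0397. Those of *Egf* and *Erbb3* were also lost without either CCL21-RANK- library. These were the 3 genes called of 15 EGF family genes tested (20% against 4.35% of all genes), with 0 lower and a list median of 0.16.

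Of 24 dense-core granule and secretory genes tested, *Chga*, *Cpe*, *Scg5*, and *Vamp2* were called higher (16.7% against 4.35% of all genes) and 0 lower, with a median log2 fold change of 0.23. *Cpe*, a carboxypeptidase that trims prohormones, was at 14.2, 3.54, and 1.77 RPKM and 0.449 and 0.476 RPKM (edgeR log2 fold change of 3.83 ± 0.936 SE, adjusted p = 0.0286), and its call was lost without replicate 1 (log2 fold change 2.56, edgeR adjusted p = 0.0513) and without either CCL21-RANK- library (adjusted p = 0.169 and 0.195). *Scg5*, a chaperone of a prohormone convertase, was at 3.62, 2.37, and 2.00 RPKM and 0.236 and 0.196 RPKM (edgeR log2 fold change of 3.62 ± 0.539 SE, adjusted p = 0.00275). The call of *Vamp2*, a vesicle fusion protein, was also lost without replicate 1 (edgeR adjusted p = 0.0536) and without either CCL21-RANK- library (0.153 and 0.134), so that 2 of the 4 were called without replicate 1.

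**Figure D2:**
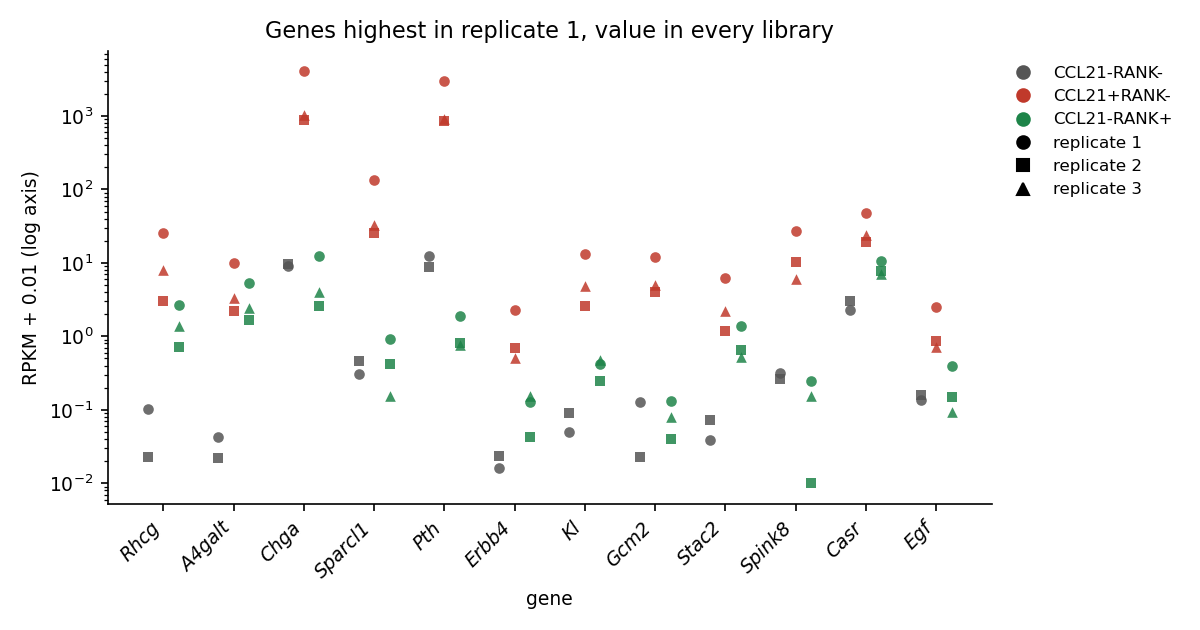
RPKM of the 10 leading genes highest in replicate 1, with *Casr* and *Egf*, in each library of the 3 groups (log axis, 0.01 added, so a gene at 0 sits at 0.01). Circles mark replicate 1, squares replicate 2, and triangles replicate 3. In all 12 genes the red circle, CCL21+RANK- replicate 1, is the highest point, and all red points lie above both grey CCL21-RANK- points.

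By the ratio of replicate 1 to the mean of replicates 2 and 3, which was 3.42 for *Pth*, the nearest genes of the class, among those with a mean of at least 5 CPM in CCL21+RANK- TECs, were *Fam20c* (3.42), *Plcb1* (3.38), *Cnmd* (3.35), *Efemp1* (3.27), *Pcyt1b* (3.27), *Spink8* (3.25), *Kl* (3.64), *A4galt* (3.67), *Egf* (3.17), and *Dpysl5* (3.16). This likeness is over 3 libraries only. *Cnmd*, a cartilage matrix protein, was the most abundant of them at 371, 96.5, and 127 RPKM against 4.01 and 18.9 RPKM (edgeR log2 fold change of 4.16 ± 1.09 SE, adjusted p = 0.0378). Its call was lost without replicate 1 (log2 fold change 3.33) or CCL21+RANK- replicate 2 (edgeR adjusted p = 0.0597). *Plcb1* and *Dpysl5* also lost their calls without replicate 1 (log2 fold changes of 3.17 and 4.51), as their means were then below 1 RPKM. Without CCL21-RANK- replicate 1 or 2, the calls of *Cnmd*, *Plcb1*, and *Fam20c* were lost. *Pcyt1b*, an enzyme of phosphatidylcholine synthesis, was at 11.7, 3.76, and 3.36 RPKM and 0.415 and 0.508 RPKM (edgeR log2 fold change of 3.77 ± 0.576 SE, adjusted p = 0.00314).

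The same replicate number was often the highest in the CCL21-RANK+ group. Of the 84 genes highest in replicate 1, 66 (78.6%) were also highest in replicate 1 among the 3 CCL21-RANK+ libraries, compared with 340 of the 582 even genes (58.4%), 40.3% of all genes tested, and 68.75% of all 1344 tested genes highest in replicate 1. The median ratio of replicate 1 to the mean of the others in the CCL21-RANK+ libraries was 1.54 in these 84 genes, 1.10 in the even genes, and 0.999 in all genes tested. For *Pth* itself this ratio was 2.21, at 1.89, 0.815, and 0.758 RPKM, and for *Chga* it was 3.47, at 12.4, 2.55, and 4.06 RPKM. Among CCL21-RANK- TECs, replicate 1 was above replicate 2 in 45 of the 84 genes (53.6%), compared with 46.6% of all genes tested. These are counts over genes of the same libraries and carry no p-value.

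Markers of thymocytes moved with replicate 1 as well. The summed level of 20 thymocyte markers was 73.1, 30.9, and 36.5 CPM in the CCL21+RANK- libraries and 23.3 and 17.4 CPM in the CCL21-RANK- libraries, and *Rag1*, the most abundant, was at 34.9, 10.1, and 16.9 CPM and 8.00 and 6.59 CPM. One of the 20, *Cd8b1*, a co-receptor chain of cytotoxic T cells, was called higher (5.00%, near the 4.35% of all genes) and 0 were called lower. It was at 1.71, 0.704, and 0.807 RPKM and 0.240 and 0.169 RPKM (edgeR log2 fold change of 2.37 ± 0.594 SE, adjusted p = 0.0313), and its call was lost without replicate 1 (log2 fold change 1.86, edgeR adjusted p = 0.0846) or either CCL21-RANK- library. Their part in the result was not tested.

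Among the even genes were *Krt5*, *Krt17*, and *Pkp1*. *Krt5* (chr15:101707070-101712898), the basal keratin of medullary TECs, was at 1048, 942, and 871 RPKM in CCL21+RANK- TECs, compared with 158 and 122 RPKM in CCL21-RANK- TECs (edgeR log2 fold change of 2.76 ± 0.280 SE, adjusted p = 0.000439). Its log2 fold change without replicate 1 was 2.69. *Krt17*, a keratin of basal and activated epithelium, was at 1016, 852, and 907 RPKM and 399 and 447 RPKM (edgeR log2 fold change of 1.13 ± 0.161 SE, adjusted p = 0.00224), and *Pkp1*, a desmosomal plakophilin, at 87.7, 75.7, and 63.9 RPKM and 12.6 and 13.3 RPKM (edgeR log2 fold change of 2.56 ± 0.222 SE, adjusted p = 0.000201). In these genes no CCL21+RANK- library stood apart, and the groups did not overlap. *Trp63*, the factor p63 of basal epithelium, was at 70.7, 71.8, and 81.2 RPKM and 64.2 and 65.7 RPKM and was not called (log2 fold change 0.20, edgeR adjusted p = 0.692). *Krt14*, the partner of Krt5, lay outside the even class at 61.3, 55.1, and 41.8 RPKM and 8.03 and 7.74 RPKM (edgeR log2 fold change of 2.75 ± 0.264 SE, adjusted p = 0.000326). Over all 21 keratins tested, *Krt5*, *Krt14*, and *Krt17* were called higher and *Krt4*, *Krt15*, and *Krt19* lower (14.3% each, against 4.35% and 3.66% of all genes), with a median of -0.09. The lower calls were all lost without CCL21-RANK- replicate 2 (log2 fold changes of -2.725, -0.69, and -1.19). That of *Krt4* was also lost without CCL21+RANK- replicate 2 (edgeR adjusted p = 0.0514).

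Of 29 medullary TEC genes tested, 14 were called higher (48.3% against 4.35% of all genes) and 2 lower (6.90% against 3.66%), with a median log2 fold change of 1.13. Of the 14, 9 were even, 4 lay between, and *Cldn4* was highest in replicate 1, and 12 genes of the list were called without that library. The 14 include *Ccl21a* and *Tnfrsf11a*, which the gates use. *Ccl19*, the second ligand of the thymocyte receptor CCR7, was at 4.41, 2.73, and 3.14 RPKM and 0.308 and 0.322 RPKM (edgeR log2 fold change of 3.44 ± 0.531 SE, adjusted p = 0.00332). *Ctss*, a protease of the MHC class II pathway, was at 3.94, 2.39, and 3.61 RPKM and 0.884 and 0.802 RPKM (edgeR log2 fold change of 1.97 ± 0.300 SE, adjusted p = 0.00316), far below the CCL21-RANK+ libraries at 95.5, 47.8, and 56.3 RPKM. *Aire* was at 0.802, 0.807, and 0.631 RPKM and 0.810 and 0.120 RPKM, with overlapping groups (log2 fold change 0.66, edgeR adjusted p = 0.53), where the sign turned without CCL21-RANK- replicate 2 (-0.19).

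Of 20 cortical TEC genes tested, *Tbata* was called higher and *Dll4* lower (5.00% each, near the 4.35% and 3.66% of all genes), with a median log2 fold change of -0.15. *Prss16*, the thymus-specific serine protease, was at 1023, 907, and 1017 RPKM in CCL21+RANK- TECs, compared with 865 and 919.97 RPKM in CCL21-RANK- TECs (log2 fold change 0.14, edgeR adjusted p = 0.777). *Psmb11*, the subunit of the cortical thymoproteasome, was at 203, 265, and 333 RPKM and 293 and 299 RPKM, and its log2 fold change of -0.16 turned to 0.01 without replicate 1. *Il7*, the cytokine of early thymocytes, was at 37.6, 42.3, and 41.0 RPKM and 28.3 and 28.2 RPKM (edgeR adjusted p = 0.212). *Il7* was higher in all 3 CCL21+RANK- libraries by a fold change under the threshold, and the groups overlapped for the other two. The list summed to 25955, 24817, and 24825 CPM in the CCL21+RANK- libraries and 21556 and 20940 CPM in the CCL21-RANK- libraries, compared with 3309, 4157, and 3052 CPM in the CCL21-RANK+ libraries. The most abundant gene, the protease gene *Ctsl*, made up 9917, 8032, and 8118 CPM and 4986 and 5084 CPM of the first 2 sums and was not called (log2 fold change 0.79, edgeR adjusted p = 0.0691). *Dll4*, the Notch ligand that commits progenitors to the T lineage, was at 58.5, 71.6, and 90.2 RPKM and 110.04 and 119 RPKM (edgeR log2 fold change of -0.64 ± 0.151 SE, adjusted p = 0.0239), and its call was lost without replicate 1 (log2 fold change -0.51) or replicate 2 (-0.67), and without either CCL21-RANK- library. That of *Tbata* was lost without the same libraries (log2 fold changes of 0.78 and 0.68 without replicates 1 and 2).

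By number, interferon-stimulated genes held more even genes called higher than any other list, although the lists differ in size. Of 62 tested, 41 were called higher (66.1% against 4.35% of all genes) and 0 lower, with a median log2 fold change of 1.06. Of the 41 genes, 35 were even, 6 lay between, and 0 were highest in replicate 1, and 36 of the list were called without that library. The list summed to 5483, 5596, and 5612 CPM in the CCL21+RANK- libraries and 3331 and 3813 CPM in the CCL21-RANK- libraries. The CCL21-RANK+ libraries were lower than both, at 2384, 2159.9, and 2136 CPM. Without CCL21-RANK- replicate 1 the count was 21.

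The interferon genes themselves were mostly not detected, whereas some receptor chains were higher. Of the ligands, 8 (*Ifnk*, *Ifne*, *Ifnb1*, *Ifnl2*, *Ifnl3*, *Ifna4*, *Ifna2*, and *Ifna1*) had 0 counts in all 5 libraries at these depths. Of 12 interferon ligand, receptor, and kinase genes tested, *Jak1*, *Ifngr1*, and *Ifngr2* were called higher (25% against 4.35% of all genes), each even, and 0 lower. Among the 12, 9 log2 fold changes were positive and 1 was negative. The rest had 0 counts in both groups compared and entered the test through the CCL21-RANK+ libraries. *Jak1*, the kinase shared by interferon receptors, was at 61.3, 59.2, and 64.1 RPKM and 30.8 and 33.0 RPKM (edgeR log2 fold change of 0.95 ± 0.116 SE, adjusted p = 0.00106), and *Ifngr2*, a chain of the interferon gamma receptor, at 21.7, 19.1, and 21.6 RPKM and 11.2 and 13.0 RPKM (edgeR log2 fold change of 0.78 ± 0.0972 SE, adjusted p = 0.00116). The call of *Ifngr1* was lost without either CCL21-RANK- library (edgeR adjusted p = 0.155 and 0.0819).

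Among the targets, *Slfn5*, a Schlafen family gene, was at 4.6, 3.06, and 3.23 RPKM in CCL21+RANK- TECs, compared with 0.434 and 0.519 RPKM in CCL21-RANK- TECs (edgeR log2 fold change of 2.94 ± 0.375 SE, adjusted p = 0.00134). *Oas3*, which makes the second messenger that activates RNase L, was at 3.82, 2.79, and 3.36 RPKM and 0.784 and 0.899 RPKM (edgeR log2 fold change of 1.98 ± 0.308 SE, adjusted p = 0.00338). *Nlrc5*, the transactivator of MHC class I genes, was at 2.37, 1.82, and 1.87 RPKM and 0.290 and 0.278 RPKM (edgeR log2 fold change of 2.83 ± 0.252 SE, adjusted p = 0.000219). In all 3 genes the CCL21+RANK- libraries lay above both CCL21-RANK- libraries, and *Oas3* and *Nlrc5* were even while *Slfn5* fell just outside that class. *Mx1*, an antiviral GTPase, was less even at 2.02, 1.21, and 0.733 RPKM and 0.251 and 0.310 RPKM (edgeR log2 fold change of 2.26 ± 0.526 SE, adjusted p = 0.0237), and its call was lost without replicate 1 (log2 fold change 1.82), replicate 2 (2.28), or either CCL21-RANK- library.

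The promoters of these genes were searched for the core of the interferon-stimulated response element, written as GAAA, any 2 bases, and GAAA, on both strands. A match was found in 1131 of all 32851 RefSeq promoters (3.44%) and in 26 of 58 promoters of the list (44.8%), where 47 genes of the list had a promoter entry. It was found in 19 of 36 promoters of genes called higher (52.8%) and 7 of 21 of genes not called (33.3%). Shown here are the promoters of the 3 called genes with the largest fold change that hold a match, *Slfn5* (chr11:82951852-82952151, plus strand), *Oas3* (chr5:120777610-120777909, minus strand), and *Trim30a* (chr7:104465144-104465443, minus strand), from RefSeq on GRCm38.p6, 5′ to 3′ from 250 bases before to 50 bases after the transcription start. The capitals mark the match, which begins 155, 75, and 36 bases before the start. *Trim30a*, a tripartite motif gene, rose by 1.82 on the log2 scale (edgeR adjusted p = 0.000609). A match describes the letters only and is not evidence of binding.
Slfn5: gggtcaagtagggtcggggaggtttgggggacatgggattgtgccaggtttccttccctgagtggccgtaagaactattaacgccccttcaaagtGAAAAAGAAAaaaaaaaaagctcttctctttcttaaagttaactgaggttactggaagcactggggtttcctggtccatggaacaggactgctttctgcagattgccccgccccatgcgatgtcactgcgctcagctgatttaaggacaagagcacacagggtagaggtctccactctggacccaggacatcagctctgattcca
Oas3: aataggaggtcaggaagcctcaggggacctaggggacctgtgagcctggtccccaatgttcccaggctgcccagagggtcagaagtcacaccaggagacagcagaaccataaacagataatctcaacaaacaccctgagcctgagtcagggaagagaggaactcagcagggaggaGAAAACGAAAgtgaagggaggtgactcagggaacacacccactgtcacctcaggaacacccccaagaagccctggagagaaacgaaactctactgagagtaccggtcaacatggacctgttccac
Trim30a: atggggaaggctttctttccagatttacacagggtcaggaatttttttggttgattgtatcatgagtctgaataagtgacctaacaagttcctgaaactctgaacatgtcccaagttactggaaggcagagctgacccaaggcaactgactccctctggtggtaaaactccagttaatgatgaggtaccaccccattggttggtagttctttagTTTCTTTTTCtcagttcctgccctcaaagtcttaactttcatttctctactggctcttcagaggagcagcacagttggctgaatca

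MHC class I genes were higher as well. Of 22 MHC class I presentation genes tested, 14 were called higher (63.6% against 4.35% of all genes), 13 of them even, and 0 lower, with a median log2 fold change of 0.90, and 13 were called without replicate 1. Of the 14, *Nlrc5*, *Psmb8*, and *Tap1* also belong to the interferon-stimulated list. *H2-D1*, a classical class I heavy chain, was at 372, 279.9, and 342 RPKM in CCL21+RANK- TECs, compared with 86.3 and 114 RPKM in CCL21-RANK- TECs (edgeR log2 fold change of 1.73 ± 0.238 SE, adjusted p = 0.00189). *H2-Q6* and *H2-Q7*, nonclassical class I genes with similar sequence whose reads may be divided between them, were at 50.2, 42.1, and 36.2 RPKM and 33.5, 25.8, and 24.6 RPKM, compared with 2.93 and 3.59 RPKM and 2.68 and 2.45 RPKM. Their log2 fold changes were 3.73 and 3.45 (edgeR adjusted p = 0.000219 and 9.09e-05).

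Of 17 MHC class II presentation genes tested, 5 were called higher (29.4% against 4.35% of all genes) and 0 lower, with a median of 0.58. *H2-DMb2*, a chain of the peptide editor H2-DM, was at 98.1, 65.2, and 74.7 RPKM and 15.4 and 18.3 RPKM (edgeR log2 fold change of 2.24 ± 0.217 SE, adjusted p = 0.000346), and *H2-Oa*, a chain of its modulator H2-O, at 30.5, 21.6, and 25.9 RPKM and 6.92 and 7.26 RPKM (edgeR log2 fold change of 1.87 ± 0.223 SE, adjusted p = 0.000994). *Ciita*, the class II transactivator, was at 30.9, 29.5, and 25 RPKM and 11.6 and 15.1 RPKM (edgeR log2 fold change of 1.11 ± 0.182 SE, adjusted p = 0.00447), and its call was lost without CCL21-RANK- replicate 1 (edgeR adjusted p = 0.0583).

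**Figure D3:**
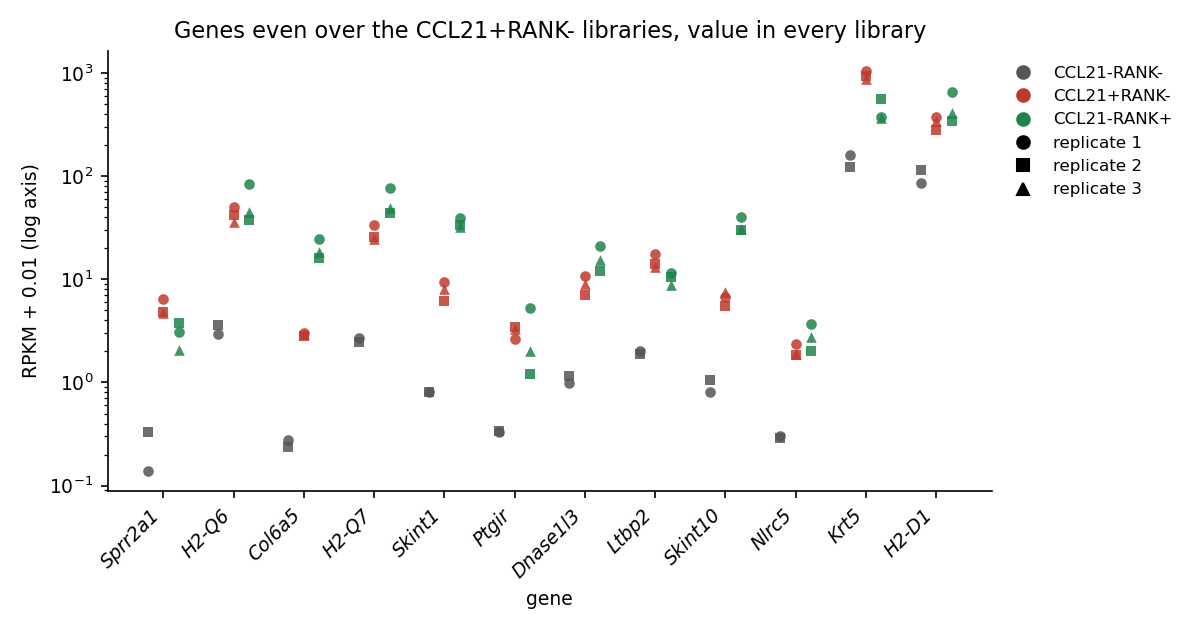
RPKM of the 10 leading even genes, with *Krt5* and *H2-D1*, in every library (log axis, 0.01 added). The 3 red CCL21+RANK- points of a gene lie close together and above both grey CCL21-RANK- points in all 12 genes, and the green CCL21-RANK+ points lie above the red ones for *Col6a5*, *H2-Q7*, *Skint1*, *Dnase1l3*, and *Skint10*.

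Gene families beside these lists were looked at after their values were seen. Of 10 guanylate-binding protein genes, which encode interferon-induced GTPases, 7 were called higher (70.0% against 4.35% of all genes) and 0 lower (median 1.41), and 4 of the 7 (*Gbp2*, *Gbp3*, *Gbp6*, and *Gbp7*) also belong to the interferon-stimulated list. *Gbp5* was at 4.51, 3.70, and 3.99 RPKM and 0.878 and 1.26 RPKM (edgeR log2 fold change of 1.94 ± 0.172 SE, adjusted p = 0.000219). Of 9 Skint genes tested, a family known for the selection of dendritic epidermal T cells in the thymus, 5 were called higher (55.6%) and 0 lower (median 2.84). *Skint1*, the founding member, was at 9.38, 6.17, and 7.98 RPKM in CCL21+RANK- TECs, compared with 0.792 and 0.801 RPKM in CCL21-RANK- TECs (edgeR log2 fold change of 3.29 ± 0.177 SE, adjusted p = 3.25e-05). It was higher still in the CCL21-RANK+ libraries, at 38.9, 33.4, and 31.8 RPKM. *Skint2* in contrast was at 0.211, 0.264, and 0.266 RPKM and 0.199 and 0.00586 RPKM and was not called (edgeR adjusted p = 0.326).

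Of 4 Sprr2 genes tested, which encode cornified envelope proteins, 3 were called higher (75% against 4.35% of all genes). *Sprr2a2* was at 202, 127, and 122 RPKM and 5.25 and 4.88 RPKM (edgeR log2 fold change of 4.89 ± 0.291 SE, adjusted p = 5.51e-05), and *Sprr2a1* and *Sprr2a3* had log2 fold changes of 4.59 and 5.74, although these near-identical neighbours share reads and cannot be ranked. Of 9 serpin A3 genes tested, a family of protease inhibitors, 4 were called higher (44.4% against 4.35%) and 0 lower. *Serpina3j* was at 3.74, 3.69, and 2.54 RPKM and 0.0482 and 0.0713 RPKM (edgeR log2 fold change of 5.79 ± 0.359 SE, adjusted p = 5.62e-05), and *Serpina3g* at 95.4, 87.3, and 83.2 RPKM and 26.1 and 32.7 RPKM (edgeR log2 fold change of 1.60 ± 0.131 SE, adjusted p = 0.00014).

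Other leading even genes belong to none of the lists described so far. *Col6a5*, a collagen VI chain, was at 3.01, 2.82, and 2.95 RPKM and 0.265 and 0.225 RPKM (edgeR log2 fold change of 3.58 ± 0.188 SE, adjusted p = 3.25e-05). *Ltbp2*, a matrix protein of elastic fibres, was at 17.7, 13.9, and 13.0 RPKM and 2.00 and 1.87 RPKM (edgeR log2 fold change of 2.94 ± 0.192 SE, adjusted p = 6.43e-05). *Dnase1l3*, a secreted nuclease, was at 10.6, 7.03, and 8.97 RPKM and 0.970 and 1.14 RPKM (edgeR log2 fold change of 3.07 ± 0.229 SE, adjusted p = 9.09e-05). In each of these genes the CCL21+RANK- libraries were close to each other and above both CCL21-RANK- libraries. *Ptgir*, the prostacyclin receptor, was at 2.62, 3.42, and 3.26 RPKM and 0.325 and 0.331 RPKM (edgeR log2 fold change of 3.24 ± 0.552 SE, adjusted p = 0.00544), a call that was lost without either CCL21-RANK- library (edgeR adjusted p = 0.0532 and 0.0675).

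The genes between the classes held several with hardly any CCL21-RANK- transcript. *Ibsp*, bone sialoprotein, was at 4.38, 6.22, and 2.75 RPKM in CCL21+RANK- TECs, with 2 counts in each CCL21-RANK- library (edgeR log2 fold change of 8.25 ± 0.946 SE, adjusted p = 0.000858). *Nell1*, a secreted factor of bone formation, was at 4.89, 2.28, and 3.19 RPKM and 0.0632 and 0.0902 RPKM (edgeR log2 fold change of 5.49 ± 0.483 SE, adjusted p = 0.000211), and *Fst*, the activin inhibitor follistatin, at 1.62, 1.62, and 1.01 RPKM and 0.0355 and 0.0152 RPKM (edgeR log2 fold change of 5.79 ± 0.599 SE, adjusted p = 0.000495). *Tnmd*, tenomodulin, and *Spp1*, osteopontin, were picked after their values were seen and were at 2.87, 2.09, and 1.66 RPKM and 1.39, 0.356, and 1.92 RPKM, with 0.0110 and 0 RPKM and 0.00900 and 0 RPKM in CCL21-RANK- TECs. The call of *Spp1* was lost without replicate 3, when its mean was below 1 RPKM (edgeR adjusted p = 0.0148), and without either CCL21-RANK- library. *Hoxa7*, a homeobox factor of trunk position, was at 1.54, 3.18, and 2.22 RPKM and 0.0464 and 0.0680 RPKM (edgeR log2 fold change of 5.34 ± 0.695 SE, adjusted p = 0.00146), with replicate 2 highest. *Alox15*, a lipoxygenase, was at 13.2, 14.6, and 11.1 RPKM and 0.362 and 0.410 RPKM (edgeR log2 fold change of 5.08 ± 0.413 SE, adjusted p = 0.00014).

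Signalling lists moved in part. Of 34 TNF superfamily and NF-kB genes tested, 7 were called higher (20.6% against 4.35% of all genes) and 1 lower (2.94%, near the 3.66% of all genes), with a median of 0.46. *Tnfsf10*, the death ligand TRAIL, was at 1.30, 1.20, and 1.14 RPKM and 0.197 and 0.286 RPKM (edgeR log2 fold change of 2.34 ± 0.280 SE, adjusted p = 0.000999), and *Fas*, a death receptor, at 2.10, 1.73, and 1.24 RPKM and 0.324 and 0.379 RPKM (edgeR log2 fold change of 2.28 ± 0.293 SE, adjusted p = 0.00137). *Tnfrsf19*, an orphan TNF receptor, was the gene lower, at 0.923, 1.04, and 1.42 RPKM and 7.16 and 9.67 RPKM (edgeR log2 fold change of -2.90 ± 0.190 SE, adjusted p = 6.43e-05). The groups did not overlap in any of the 3 genes, and *Fas* lay between the classes with replicate 1 the highest. Of 22 chemokines tested, 5 were called higher (22.7% against 4.35%, *Ccl21a* among them, median 0.46). *Cxcl16*, a membrane-bound chemokine, was at 19.1, 11.3, and 13.1 RPKM and 4.65 and 4.47 RPKM (edgeR log2 fold change of 1.66 ± 0.227 SE, adjusted p = 0.00184), and *Cxcl11*, a ligand of CXCR3, at 1.26, 0.785, and 1.03 RPKM and 0.156 and 0.177 RPKM (edgeR log2 fold change of 2.62 ± 0.307 SE, adjusted p = 0.000933), which without replicate 1 was below 1 RPKM and not called (log2 fold change 2.44).

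Of 45 Wnt pathway genes tested, 4 were called higher (8.89% against 4.35% of all genes) and 1 lower (2.22% against 3.66%), with a median of -0.10. The ligands *Wnt5a* and *Wnt5b*, which mostly act without beta-catenin, were at 5.57, 2.59, and 3.28 RPKM and 8.93, 3.53, and 4.36 RPKM in CCL21+RANK- TECs, compared with 0.788 and 0.550 RPKM and 0.553 and 0.658 RPKM in CCL21-RANK- TECs. Their log2 fold changes were 2.49 and 3.21 (edgeR adjusted p = 0.00187 and 0.00319), and replicate 1 was highest for both. *Sfrp1*, a secreted Wnt inhibitor, was at 58.3, 43.4, and 40.8 RPKM and 13.4 and 12.3 RPKM (edgeR log2 fold change of 1.89 ± 0.208 SE, adjusted p = 0.000672), and *Fzd1*, a Wnt receptor, at 30.5, 21.9, and 22.9 RPKM and 9.53 and 11.9 RPKM (edgeR log2 fold change of 1.23 ± 0.156 SE, adjusted p = 0.00129). *Fzd10*, another receptor, was lower at 2.11, 1.20, and 1.94 RPKM and 4.08 and 4.18 RPKM (edgeR log2 fold change of -1.24 ± 0.192 SE, adjusted p = 0.00328). Of 43 axon guidance genes tested, 8 were called higher (18.6% against 4.35%) and 1 lower (2.33% against 3.66%, median 0.01), led by *Sema3d*, a secreted semaphorin, at 2.67, 1.45, and 1.57 RPKM and 0.0793 and 0.187 RPKM (edgeR log2 fold change of 3.85 ± 0.416 SE, adjusted p = 0.000611).

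Of 41 FGF and BMP pathway genes tested, 7 were called lower (17.1% against 3.66% of all genes) and 4 higher (9.76% against 4.35%), with a median of -0.10. Of the 4, *Fgfr1*, *Fgf21*, and *Smad7* were not called without CCL21+RANK- replicate 1 (edgeR adjusted p = 0.0643, 0.0835, and 0.0546) or without either CCL21-RANK- library, which left 1 gene of the list higher without replicate 1. *Spry4*, a feedback inhibitor induced by FGF, was at 0.708, 0.489, and 0.538 RPKM in CCL21+RANK- TECs, compared with 2.33 and 3.09 RPKM in CCL21-RANK- TECs (edgeR log2 fold change of -2.22 ± 0.274 SE, adjusted p = 0.00115). *Etv5*, a factor induced by FGF, was at 6.42, 3.25, and 3.58 RPKM and 15.7 and 22.2 RPKM (edgeR log2 fold change of -2.09 ± 0.340 SE, adjusted p = 0.00435), and *Spry1* and *Etv4*, picked after their values were seen, fell by 1.82 and 1.92 on the log2 scale. *Id1*, a BMP target, was at 1.88, 2.96, and 2.53 RPKM and 9.32 and 14.1 RPKM (edgeR log2 fold change of -2.23 ± 0.298 SE, adjusted p = 0.00168), and *Bmpr1b*, a BMP receptor, at 0.278, 0.383, and 0.460 RPKM and 1.52 and 2.16 RPKM (edgeR log2 fold change of -2.29 ± 0.330 SE, adjusted p = 0.00235). In these genes the lower CCL21-RANK- value exceeded every CCL21+RANK- value.

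Of 25 Notch pathway genes tested, *Notch2* was called higher (4.00% against 4.35% of all genes) and *Lfng*, *Hes6*, *Dll4*, and *Nrarp* lower (16.0% against 3.66%), with a median of -0.10. *Hes6*, a Hes family factor, was at 80.4, 105, and 119 RPKM and 284 and 321 RPKM (edgeR log2 fold change of -1.58 ± 0.153 SE, adjusted p = 0.000346), and it stayed called without each library in turn, whereas *Lfng*, *Dll4*, and *Nrarp* each lost their call without either CCL21-RANK- library and without CCL21+RANK- replicate 2, and *Dll4* and *Nrarp* also without CCL21+RANK- replicate 1, which left 2 of the 4. *Notch2* was at 66.6, 60.9, and 74.5 RPKM and 43.3 and 43.0 RPKM (edgeR log2 fold change of 0.64 ± 0.139 SE, adjusted p = 0.018), a call lost without either CCL21-RANK- library (edgeR adjusted p = 0.0809 and 0.184).

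The matrix genes split. Of 39 basement membrane and integrin genes tested, 11 were called higher (28.2% against 4.35% of all genes) and 5 lower (12.8% against 3.66%), with a median of 0.70. *Itgb5*, an integrin chain highest in replicate 1, was at 12.0, 4.62, and 5.76 RPKM and 0.505 and 0.641 RPKM (edgeR log2 fold change of 3.71 ± 0.435 SE, adjusted p = 0.00093). In the other direction, *Lama4*, a laminin chain of other basement membranes, was at 2.18, 2.30, and 2.05 RPKM and 7.07 and 9.57 RPKM (edgeR log2 fold change of -1.92 ± 0.139 SE, adjusted p = 8.41e-05), and *Nid2*, a nidogen, at 7.77, 5.24, and 6.24 RPKM and 15.5 and 20.9 RPKM (edgeR log2 fold change of -1.50 ± 0.177 SE, adjusted p = 0.000958). Of 39 cell junction genes, 9 were called higher (23.1% against 4.35%) and 2 lower (5.13%, near the 3.66% of all genes, median 0.40), with 3 of the 9, *Crb3*, *Cldn6*, and *Cldn4*, highest in replicate 1. Without CCL21+RANK- replicate 1, 6 genes of the list were called higher and 3 lower, and *Crb3* was not called (log2 fold change 2.62). The call of *Cldn6* was lost without either CCL21-RANK- library, and that of *Crb3* without CCL21-RANK- replicate 2. *Cldn7*, a claudin, was at 7.23, 3.19, and 4.17 RPKM and 1.06 and 1.247 RPKM (edgeR log2 fold change of 2.08 ± 0.324 SE, adjusted p = 0.00343), and *Dsc3*, a desmosomal cadherin, was lower at 21.7, 17.2, and 22.7 RPKM and 53.2 and 59.0 RPKM (edgeR log2 fold change of -1.45 ± 0.163 SE, adjusted p = 0.000728).

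Of the 786 genes lower in CCL21+RANK- TECs, 567 were even over the CCL21+RANK- libraries, 206 lay between, and 5, 1, and 7 were highest in replicates 1, 2, and 3. Among the lists, the largest numbers were of proliferation, histone, and ribosomal protein genes.

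**Figure D4:**
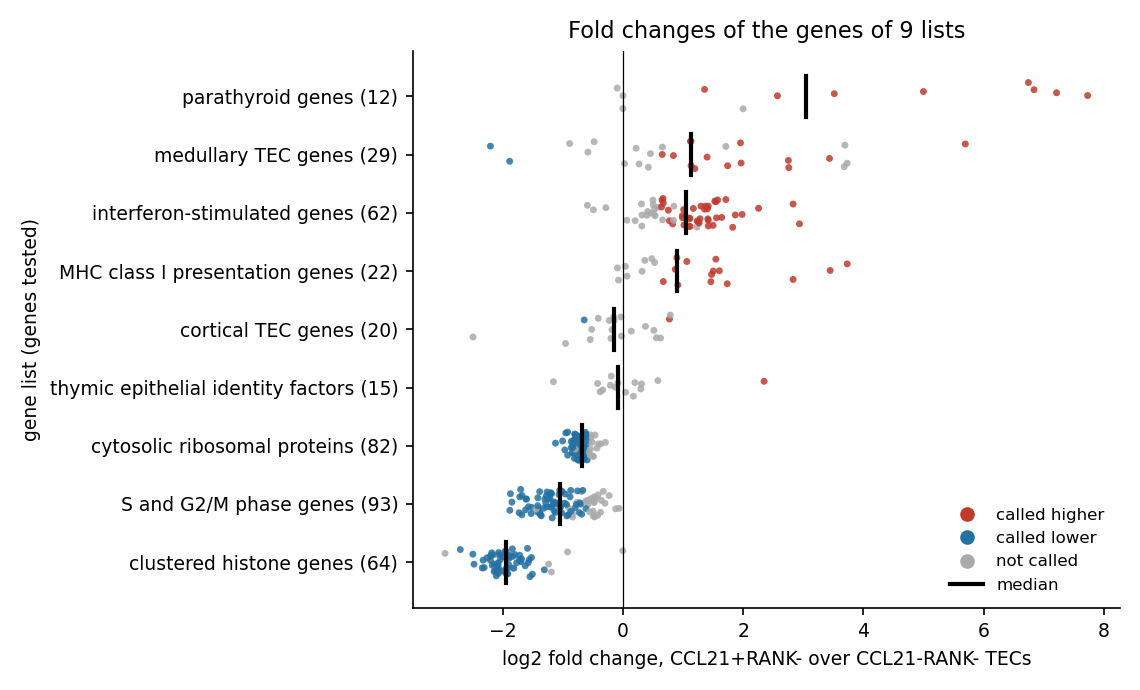
Log2 fold change of CCL21+RANK- over CCL21-RANK- TECs (x axis) for each tested gene of 9 lists (y axis, number tested in brackets). Red points were called higher, blue points lower, grey points were not called, and the black bar is the median, from 3.04 in the parathyroid list to -1.94 in the clustered histones.

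Of 93 S and G2/M phase genes tested, 65 were called lower (69.9% against 3.66% of all genes) and 0 higher, with a median log2 fold change of -1.04. Their sum was 2497, 2460.3, and 2554 CPM in the CCL21+RANK- libraries and 4286 and 4590.4 CPM in the CCL21-RANK- libraries, so that the groups did not overlap. *Ube2c*, which drives the exit from mitosis, was at 1.35, 3.02, and 2.84 RPKM and 8.23 and 9.40 RPKM (edgeR log2 fold change of -1.87 ± 0.367 SE, adjusted p = 0.0108), and *Cenpa*, the centromeric histone, at 0.526, 0.601, and 0.681 RPKM and 1.93 and 2.42 RPKM (edgeR log2 fold change of -1.85 ± 0.265 SE, adjusted p = 0.00232). *Ccnd2*, a cyclin of the G1 phase, was at 30.6, 19.3, and 25.5 RPKM and 45 and 49.7 RPKM (edgeR log2 fold change of -0.92 ± 0.168 SE, adjusted p = 0.00771). The calls of *Ube2c* and *Ccnd2* were lost without either CCL21-RANK- library (edgeR adjusted p of 0.0572 and 0.07 for *Ube2c*). Without replicate 1 of the CCL21+RANK- libraries 57 genes of the list were called, and without CCL21-RANK- replicates 1 and 2 there were 31 and 23.

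The clustered histone genes, a list chosen after the values were seen, were lower by more. Of 64 tested, 57 were called lower (89.1% against 3.66% of all genes) and 0 higher, with a median log2 fold change of -1.94. Their sum was 1676, 2292, and 2528 CPM in the CCL21+RANK- libraries, 8687 and 6489.7 CPM in the CCL21-RANK- libraries, and 4128, 9693, and 8819 CPM in the CCL21-RANK+ libraries, where replicate 1 was the lowest. *Hist1h4f*, a copy of histone H4, was at 74.9, 63.8, and 102 RPKM and 542 and 493 RPKM (edgeR log2 fold change of -2.70 ± 0.300 SE, adjusted p = 0.000709), although the copies have similar sequence and may share reads. Without CCL21-RANK- replicate 1 the count was 21.

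Of 82 cytosolic ribosomal protein genes tested, 66 were called lower (80.5% against 3.66% of all genes) and 0 higher, but by less, with log2 fold changes of -1.12 to -0.29 and a median of -0.69. They summed to 21710, 26196, and 28015 CPM in the CCL21+RANK- libraries and 40266 and 41279 CPM in the CCL21-RANK- libraries, with replicate 1 the lowest of all 5. *Rplp1*, a protein of the ribosomal stalk, was at 387, 461, and 536 RPKM and 951 and 1058 RPKM (edgeR log2 fold change of -1.12 ± 0.164 SE, adjusted p = 0.00254), and it was the 1 gene of the list that passed a formal test of a fold change over 1.5. The count was 20 without replicate 1 and 8 and 4 without CCL21-RANK- replicates 1 and 2. *Myc*, a driver of ribosome production, was at 10.1, 11.0, and 15.7 RPKM and 22.9 and 25.9 RPKM (edgeR log2 fold change of -1.0 ± 0.225 SE, adjusted p = 0.0207), a call lost without replicate 1 (log2 fold change -0.88), replicate 2 (-0.97), or either CCL21-RANK- library.

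The single genes with the largest fall had varied roles. *Fam43b* was at 0.0275, 0.0446, and 0.112 RPKM in CCL21+RANK- TECs, compared with 4.42 and 5.70 RPKM in CCL21-RANK- TECs (edgeR log2 fold change of -6.36 ± 0.628 SE, adjusted p = 0.00038). *Lmo3*, a LIM-domain cofactor, was at 0.0196, 0.0254, and 0.0353 RPKM and 1.07 and 1.67 RPKM (edgeR log2 fold change of -5.65 ± 0.389 SE, adjusted p = 7.4e-05), and *Emilin3*, a matrix glycoprotein, at 0.203, 0.331, and 0.291 RPKM and 4.8 and 5.88 RPKM (edgeR log2 fold change of -4.27 ± 0.432 SE, adjusted p = 0.000439). In all 3 genes both CCL21-RANK- libraries were well above every CCL21+RANK- library. *Aqp3*, a water and glycerol channel, was at 1.19, 1.93, and 2.2 RPKM and 19.8 and 23.6 RPKM (edgeR log2 fold change of -3.61 ± 0.330 SE, adjusted p = 0.000242), and *Tnfrsf18*, which encodes the receptor GITR, at 0.715, 0.414, and 0.583 RPKM and 6.13 and 7.50 RPKM (edgeR log2 fold change of -3.57 ± 0.319 SE, adjusted p = 0.000223). *Cacng4*, a subunit that regulates ion channels, was at 0.558, 0.803, and 0.675 RPKM and 5.55 and 7.10 RPKM (edgeR log2 fold change of -3.21 ± 0.255 SE, adjusted p = 0.000126). The CCL21-RANK+ libraries were near the CCL21-RANK- level for *Lmo3* (1.01, 1.42, and 1.52 RPKM) and near the CCL21+RANK- level for *Emilin3* (0.408, 0.141, and 0.152 RPKM). For *Aqp3* they were at 49.7, 21.1, and 26.4 RPKM, with replicate 1 well above both CCL21-RANK- libraries.

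**Figure D5:**
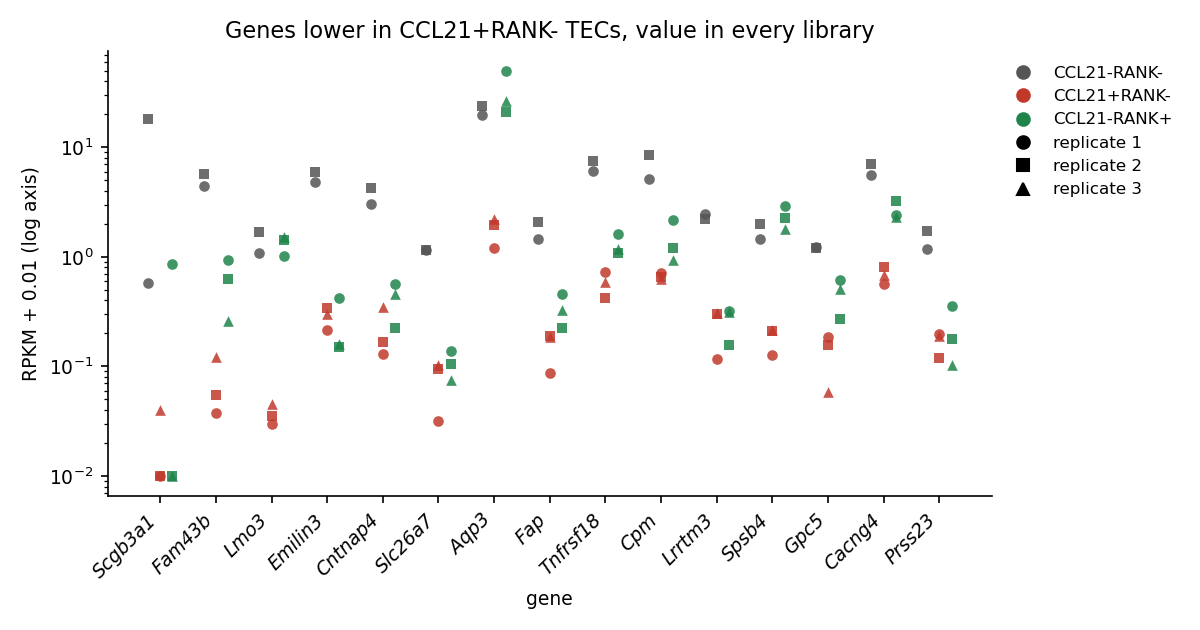
RPKM of the 15 leading genes lower in CCL21+RANK- TECs in every library (log axis, 0.01 added, so a gene at 0 sits at 0.01). Both grey CCL21-RANK- points lie above all red CCL21+RANK- points in each gene, and the grey points are far apart for *Scgb3a1*.

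Most of the lower genes lost their call without CCL21-RANK- replicate 2, and a few of them are described here. *Scgb3a1*, a secretoglobin of airway epithelium, was at 0.570 and 18.0 RPKM in CCL21-RANK- TECs and had 0, 0, and 1 counts in the CCL21+RANK- libraries (edgeR adjusted p = 0.0219), and its call was lost without that library (adjusted p = 0.343) and without each CCL21+RANK- library (0.0727, 0.0835, and 0.0767). *Scgb3a2*, *Reg3g*, and *Agr2*, secreted products of mucosal epithelia that were picked after their values were seen, were at 0.0168 and 45.8 RPKM, 0.140 and 5.60 RPKM, and 1.13 and 6.61 RPKM in CCL21-RANK- TECs, and the groups overlapped for *Scgb3a2* and *Reg3g*. Without replicate 2 their log2 fold changes were 2.10, 0.07, and -5.58, and none was called, although the groups did not overlap for *Agr2* (edgeR adjusted p = 0.0573 without that library). The calls of *Scgb3a2* and *Reg3g* were also lost without each CCL21+RANK- library, and that of *Krt15* without CCL21+RANK- replicate 1 or 2. *Krt15* and *Krt19*, keratins of progenitor and simple epithelium, were also higher in CCL21-RANK- replicate 2, at 4.32 and 22.6 RPKM and 4.78 and 11.9 RPKM against 1.87, 2.34, and 4.37 RPKM and 2.55, 2.62, and 1.39 RPKM in CCL21+RANK- TECs. Their log2 fold changes of -2.2 and -1.88 were -0.69 and -1.19 without it, when neither was called, and the groups overlapped for *Krt15*.

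Markers of other cell types were also counted. No gene was called in either direction among 8 B-cell, 14 myeloid and dendritic, 9 endothelial, 9 erythroid, and 10 thyroid and C-cell markers tested. The median log2 fold changes of these lists were 1.13, 0.72, 0.85, -1.61, and -0.28, in that order. Markers with a mean below 1 RPKM could not be called, so the lack of calls does not show that the groups were alike. The myeloid and dendritic sum was 2.82, 1.11, and 1.03 CPM in the CCL21+RANK- libraries and 1.39 and 0.902 CPM in the CCL21-RANK- libraries. The erythroid sum varied most, at 5.35, 139.7, and 43.4 CPM and 375 and 42.4 CPM, with *Hbb-bs* the most abundant, and it was lowest in CCL21+RANK- replicate 1 and highest in CCL21-RANK- replicate 1. Of 12 mesenchyme markers *Postn* was called higher (8.33% against 4.35% of all genes), and of 10 neural markers *Ngfr* and *Stmn2* (20% against 4.35%), and all 3 calls were lost without replicate 1, replicate 2, or either CCL21-RANK- library (without replicate 1, log2 fold changes of 0.89, 1.01, and 1.19). The part of these cells in the results was not tested.

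Of 9 tuft cell genes tested, *Pou2f3*, the factor that specifies tuft cells, and *Dclk1*, a kinase that marks them, were called higher (22.2% against 4.35% of all genes), and the list median was -0.01. *Pou2f3* was at 10.8, 9.83, and 10.2 RPKM and 3.21 and 4.83 RPKM (edgeR log2 fold change of 1.37 ± 0.170 SE, adjusted p = 0.00115), and *Dclk1* at 1.74, 1.71, and 1.41 RPKM and 0.470 and 0.357 RPKM (edgeR log2 fold change of 1.97 ± 0.263 SE, adjusted p = 0.0017). Both were even over the CCL21+RANK- libraries and stayed called without each library in turn.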

How the data were processed

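RNA was sequenced from 8 libraries of sorted E17 TECs, in groups of 3 CCL21+RANK-, 2 CCL21-RANK-, and 3 CCL21-RANK+ libraries. The authors deposited 1 table of expected counts per gene, and the submitters' processing notes name bcl2fastq 2.20, Trimmomatic, STAR 2.5.1, RSEM 1.3.1, and mm10, whereas the study's methods name other software. The sources also name different library kits, so strand use in the counting was not established. Of the values, 4.47% to 5.94% per library were not whole, and all were rounded. Library totals ranged from 42751858 to 71625319. All 55450 gene identifiers matched GENCODE M21 (GRCm38), from which positions and exon lengths were taken.

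Genes were tested with edgeR 4.0.16 in R 4.3.3 (TMM scaling, filterByExpr, quasi-likelihood F test, Benjamini-Hochberg adjustment over 21451 genes) in one fit of 3 group means. Genes were called at an adjusted p under 0.05 with more than a 1.5-fold difference and, in the higher group, more than 1 RPKM on average. RPKM was computed from the library total and summed exon length. Evenness was measured on TMM-scaled CPM. Standard errors were derived from the F statistic. The scripts were tested on simulated data. Replicates were not duplicate libraries (chi-square per gene of 160 to 300.9 between libraries of a group).

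Members and lists were chosen with earlier results of these data known. The genes named were the 10 with the largest change in each class of higher genes, the 15 with the largest fall, with a mean of at least 5 CPM and no overlap between groups, up to 4 called genes of each list per direction, defining markers, and the 10 genes nearest to *Pth*. Predicted genes were left out, and some list members are not reported here. Of the lists, 37 were fixed and 5 (clustered histones, Skint, Sprr2, guanylate-binding proteins, and serpin A3) were added after the values were seen, as were the genes *Scgb3a2*, *Agr2*, *Reg3g*, *Spp1*, *Tnmd*, *Gata3*, *Cldn4*, *Trim30a*, *Spry1*, and *Etv4*. Alternatives were DESeq2 1.42.0 (size factors and Wald test), upper-quartile scaling, other filters, the 5 libraries alone, a replicate block, a formal fold-change test, other class limits, and leaving out each library. Tables and plots were made with Python 3.11.15, pandas 2.3.3, and matplotlib 3.10.9.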

Additional observations from a re-analysis of the deposited data

How the results depend on the processing

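The counts of calls depended most on the 2 CCL21-RANK- libraries and on how the fold change entered the test. Leaving out 1 library at a time gave 410 to 935 genes higher and 247 to 666 lower, with the smallest counts without CCL21-RANK- replicate 1 (445 and 327) or 2 (410 and 247), where the lone library was assumed to vary like the other groups. A formal test of a fold change over 1.5 gave 423 higher and 253 lower. The class highest in replicate 1 held 34 to 40 genes without a CCL21-RANK- library, 134 by adjusted p only, and 187 or 26 with a ratio of at least 1.5 or 3. The even class held 279 to 290 genes without a CCL21-RANK- library, 223 by the formal test, and 290 with a stricter limit on the highest over the lowest library.

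By the formal test, 20 interferon-stimulated, 9 MHC class I, and 9 medullary TEC genes were higher, and 30 S and G2/M phase genes and 1 ribosomal protein gene were lower. With 1 library left out, the counts ranged over 21 to 36 interferon-stimulated, 11 to 15 MHC class I, 9 to 15 medullary, and 7 to 8 parathyroid genes higher. They ranged over 23 to 57 S and G2/M phase, 4 to 64 ribosomal protein, and 21 to 54 histone genes lower. Without CCL21-RANK- replicate 1 these were 21 interferon-stimulated, 9 medullary, 31 S and G2/M phase, 8 ribosomal, and 21 histone genes. The cause was not tested.

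Other settings gave 944 to 1348 genes higher and 684 to 1105 lower. Scaling moved the median log2 fold change by at most 0.07. *Krt18* was not called, and its sign turned with DESeq2 size factors (0.0273), the upper quartile (0.0150), DESeq2's Wald test (0.0273), and at least 10 counts in every library (0.0421). With 1 library left out, the log2 fold change ranged from -0.0832 to 0.0412 for *Krt18*, -0.278 to 0.0075 for *Psmb11*, -0.19 to 2.70 for *Aire*, -5.09 to 0.0730 for *Reg3g*, and -10.66 to 2.10 for *Scgb3a2*. The last 3 turned without CCL21-RANK- replicate 2 and *Psmb11* without CCL21+RANK- replicate 1. Of 184 named genes, 106 stayed on the same side of the threshold under every alternative run.

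Libraries of the groups compared that bear the same number had r of -0.187 and -0.245 across genes, and with 2 CCL21-RANK- libraries the deviations mirror each other, so that CCL21+RANK- replicate 1 had r of 0.187 with CCL21-RANK- replicate 2. Between the CCL21+RANK- and CCL21-RANK+ groups, libraries with equal numbers had r of 0.302, 0.147, and 0.237, and those with unequal numbers had r of -0.242 to 0.132. The numbers were not taken to pair the groups compared. With the replicate block, 1030 genes were higher and 883 lower.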

Other observations

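Mitochondrially encoded genes varied between libraries of a group. The 15 genes summed to 5316, 8798, and 6594 CPM in the CCL21+RANK- libraries and 10754 and 7464 CPM in the CCL21-RANK- libraries, with a median log2 fold change of -0.51. By edgeR's test, 0 of them were called in either direction.

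Of 26 immediate early and stress genes tested, 4 were called higher (*Hspb1*, *Jund*, *Klf6*, and *Klf4*, 15.4% against 4.35% of all genes) and 2 lower (*Fosl1* and *Myc*, 7.69% against 3.66%), with a median log2 fold change of 0.12. Of 19 imprinted growth genes, *Nnat* and *Peg3* were called higher (10.5%) and 0 lower, with a median of -0.26. Of 17 cell cycle inhibitors and D cyclins, *Cdk6* was called higher (5.88%, near the 4.35% of all genes) and *Ccnd2* and *Cdk4* lower (11.8% against 3.66%), with a median of -0.03. The calls of all these genes were lost without either CCL21-RANK- library, except that of *Peg3*, which was lost without CCL21-RANK- replicate 2 and kept without replicate 1. Those of *Jund*, *Klf6*, *Klf4*, *Myc*, *Nnat*, *Cdk6*, and *Cdk4* were also lost without CCL21+RANK- replicate 1.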
